A study of Mus musculus with 2 samples.

Results

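The genes described here are 10 members of the Sox family of transcription factors, namely Sox2, Sox4, Sox5, Sox6, Sox8, Sox9, Sox10, Sox11, Sox12 and Sox13. They were found by their symbols among the 23562 gene symbols of the deposited table. RNA was sequenced from 2 forms of the mouse mammary tumour line AS0574, titled LL3 and LL3WT, with 1 library of each. LL3 had the genotype Rnf8-/-;Trp53Δ/Δ. LL3WT was that double mutant with Rnf8 put back, so Trp53 is deleted in both. Rnf8 encodes a ubiquitin ligase of the DNA break response and Trp53 encodes p53. Neither form is an unaltered cell, and the labels do not say how Rnf8 was put back, how Trp53 was deleted or whether a form is a single clone. That both libraries come from this 1 line rests on the labels and was not tested.

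Sox proteins bind DNA through an HMG box related to that of the sex-determining factor Sry, and bend the helix at the bound site. They are sorted into groups by that box, and members of a group often act redundantly. In the mammary gland Sox9 and Sox10 are known as factors of luminal progenitor, basal and stem-like epithelial cells, and Sox4 is linked to epithelial-mesenchymal transition in tumours. Of the 10 genes, Sox2 belongs to group B1, Sox4, Sox11 and Sox12 to group C, Sox5, Sox6 and Sox13 to group D, and Sox8, Sox9 and Sox10 to group E.

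Each form was sequenced as a single library, so replicate error is unknown, no test was run and the differences below have no replicate check. The members were chosen by family with their RPKM in LL3 and LL3WT already known, so these levels are a description. The 10 Sox genes of the table that were not taken all had at most 25 reads in either form, while Sox2, with the fewest reads of those taken, had 0 in LL3 and 4 in LL3WT. RPKM divides a gene's reads by its length and by the library's total of counted reads, which was 57263401 in LL3 and 48607808 in LL3WT. Intervals are exact 95% limits and cover counting error only. Rnf8 itself stood at 10.5 RPKM in LL3 and 596 RPKM in LL3WT, so the form labelled as complemented had the higher level. Counts per gene do not show which exons were read, so the value in LL3 does not check the deletion. Trp53 stood at 6.15 RPKM in LL3 and 4.69 RPKM in LL3WT.

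The Sox genes did not all differ in 1 direction. All 3 group E genes and all 3 group D genes had more reads per library total in LL3 than in LL3WT. Group C was split, with more reads of Sox4 and fewer of Sox11 and Sox12 per library total in LL3. By a 2-fold rule on log2(RPKM + 1), only Sox4, Sox9, Sox10, Sox13 and Sox12 passed, and Sox2, Sox5, Sox6, Sox8 and Sox11 did not. Of all genes with a read, 10% were higher and 10.7% lower in LL3 by this rule. Sox2 was at the limit of detection in both forms. In bulk RNA, fewer cells of a type and less RNA per cell cannot be told apart.

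The promoters of the 3 group C genes are shown because these close relatives went in opposite directions. The RefSeq table on GRCm38.p6 held an entry for 8 of the 10 members, all but Sox9 and Sox10. The lines give the 250 bases before the transcription start, on the gene's own strand. Capitals mark the CCAAT box (CCAAT) and the GC box (GGGCGG), searched on both strands. All 3 genes lie on the minus strand, Sox4 at chr13:28953700-28953949, Sox11 at chr12:27342719-27342968 and Sox12 at chr2:152398047-152398296.
Sox4: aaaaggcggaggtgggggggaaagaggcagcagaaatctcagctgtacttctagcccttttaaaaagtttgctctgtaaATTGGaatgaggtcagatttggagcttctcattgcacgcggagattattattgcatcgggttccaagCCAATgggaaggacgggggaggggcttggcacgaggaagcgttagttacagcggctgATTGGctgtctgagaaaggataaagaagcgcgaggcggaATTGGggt
Sox11: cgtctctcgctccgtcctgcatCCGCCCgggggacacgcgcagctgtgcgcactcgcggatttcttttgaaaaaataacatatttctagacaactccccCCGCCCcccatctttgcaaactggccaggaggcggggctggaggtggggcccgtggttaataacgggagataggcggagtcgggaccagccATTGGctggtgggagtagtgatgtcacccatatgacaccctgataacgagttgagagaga
Sox12: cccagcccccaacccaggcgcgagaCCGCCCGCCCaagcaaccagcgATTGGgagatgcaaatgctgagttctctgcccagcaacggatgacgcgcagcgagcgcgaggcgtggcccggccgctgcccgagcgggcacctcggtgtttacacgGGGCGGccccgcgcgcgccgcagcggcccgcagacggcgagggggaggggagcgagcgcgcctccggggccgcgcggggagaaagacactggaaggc

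The 3 windows differed in their letters. That of Sox4 held 4 CCAAT boxes and 0 GC boxes, that of Sox11 held 1 CCAAT box and 2 GC boxes, and that of Sox12 held 1 CCAAT box and 3 GC boxes, the first 2 of which overlap. Among 27025 promoters of the same length, 34.5% held a CCAAT box and 32.9% a GC box. CpG dinucleotides numbered 11 before Sox4, 17 before Sox11 and 35 before Sox12, against a median of 6 over all promoters. None of the 3 windows held the letters TATAAA, found in 13% of promoters, or ACAAT, a core of Sox binding sites found in 28.3%. These matches are a description and do not show that a factor binds.

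In group E, Sox9 and Sox10 were higher in LL3 by the 2-fold rule, and Sox8 was within it. Sox10, which specifies neural crest and glia and is also active in mammary epithelium, had 9049 reads in LL3 and 1 read in LL3WT. These reads gave 57.9 RPKM (56.7 to 59.1) in LL3 and 0.00754 RPKM (0.000191 to 0.0420) in LL3WT. The ratio was 7681 with an interval of 1378 to 303425, whose width comes from the single read. Sox10 lies on chromosome 15 from 79154913 to 79164490 of GRCm38. By log2(RPKM + 1) difference it ranked 78 from the top among the 12609 genes with a mean of at least 1 RPKM.

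Sox9, the factor of cartilage and testis formation that epithelial progenitors also use, stood at 18.9 RPKM (18.4 to 19.5) in LL3 and 0.293 RPKM (0.223 to 0.378) in LL3WT, from 4496 reads in LL3 and 59 in LL3WT. The ratio was 64.7 (50.1 to 85.1). Sox9 lies on chromosome 11 from 112782210 to 112787757 and ranked 291 from the top. In LL3 both genes were above most detected genes, Sox10 at percentile 92.2 and Sox9 at percentile 77.8 of genes with a read. In LL3WT Sox10 lay at percentile 1.90 and Sox9 at percentile 27.9.

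Sox8, the remaining member of group E and a partner of Sox9 and Sox10 in several tissues, was low in both forms. It had 162 reads in LL3 and 4 in LL3WT, or 0.844 RPKM in LL3 and 0.0246 RPKM in LL3WT, a ratio of 34.4 (13.2 to 128). On the log2(RPKM + 1) scale, which understates the difference of low genes, its difference was 0.85 and did not reach the 2-fold line of 1. An antisense gene, 2810468N07Rik, overlaps Sox8 on the other strand and had 996 reads in LL3 and 76 in LL3WT. Of the 50-base stretches of Sox8 transcripts, 8.99% also occur in this antisense gene. Whether counting used strand is not stated, so reads of Sox8 and 2810468N07Rik may not have been told apart.

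**Figure D1:**
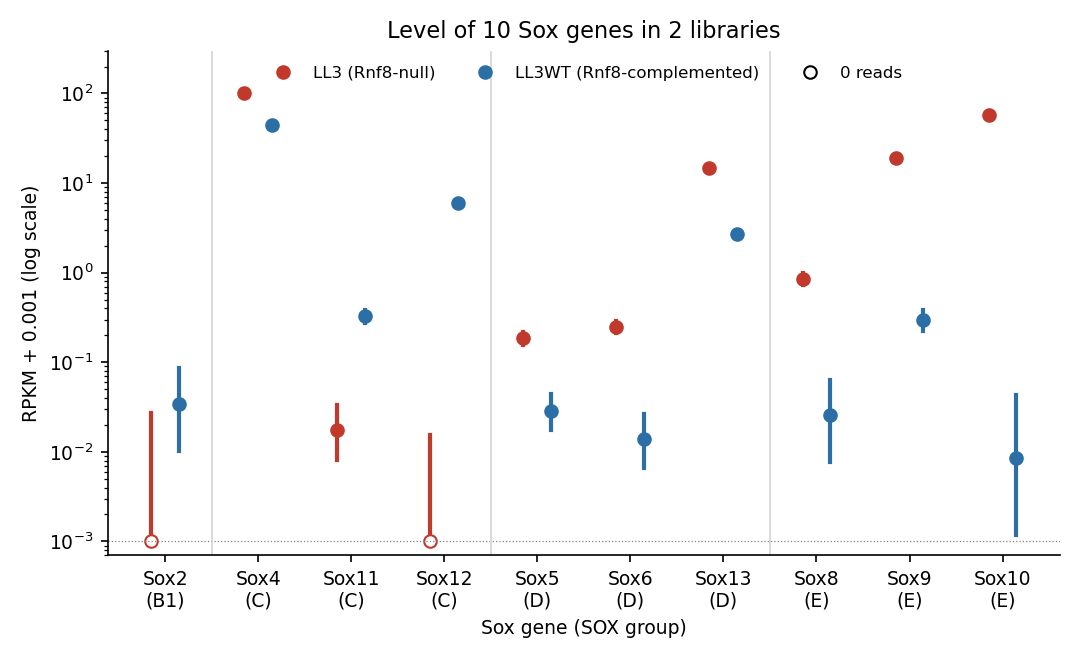
Level of each of the 10 Sox genes in LL3 (Rnf8-null, red) and LL3WT (Rnf8-complemented, blue), as RPKM plus 0.001 on a log axis, with exact 95% counting intervals and 1 library per colour. Open circles are 0 reads. Red lies above blue for Sox4 and for all group D and E genes, and below it for Sox2, Sox11 and Sox12, with overlapping intervals for Sox2.

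Group D proteins lack a known activation or repression domain of their own and work with other Sox proteins, as Sox5 and Sox6 do with Sox9 in cartilage. Sox13 was the only one of the 3 with a mean above 1 RPKM. It stood at 14.8 RPKM (14.3 to 15.3) in LL3 and 2.67 RPKM (2.44 to 2.91) in LL3WT, from 3306 reads in LL3 and 507 in LL3WT. Its ratio was 5.54 (5.04 to 6.09), with rank 913 from the top, and it lies on chromosome 1 from 133382300 to 133424459.

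Sox6 had 180 reads in LL3 and 8 in LL3WT, or 0.248 RPKM in LL3 and 0.0130 RPKM in LL3WT, a ratio of 19.1 (9.49 to 44.9). Sox5 had 149 reads in LL3 and 19 in LL3WT, or 0.184 RPKM in LL3 and 0.0277 RPKM in LL3WT, a ratio of 6.66 (4.12 to 11.4). These few reads fell on long gene models of 12662 bases for Sox6 and 14133 bases for Sox5. The log2(RPKM + 1) differences were 0.30 for Sox6 and 0.20 for Sox5, within 2-fold. Both cartilage partners of Sox9 were thus at low levels in LL3, where Sox9 itself stood at 18.9 RPKM. Of the 50-base stretches of Sox5 transcripts, 8.98% occur in other annotated genes, among them its antisense gene Sox5os1. Another antisense gene of Sox5, Sox5os3, had 0 reads in LL3 and 2 in LL3WT.

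Group C genes act in progenitor cells of nerve, heart and other embryonic tissues in the mouse, where Sox4, Sox11 and Sox12 overlap in function. Sox4 was the most abundant Sox gene of both libraries. It stood at 102 RPKM (100.3 to 103) in LL3 and 44.2 RPKM (43.1 to 45.3) in LL3WT, from 17224 reads in LL3 and 6345 in LL3WT. That was a ratio of 2.30 (2.24 to 2.37) and a log2(RPKM + 1) difference of 1.19, close above the 2-fold line. Sox4, on chromosome 13 from 28948919 to 28953699, ranked 1620 from the top. A lincRNA gene on the other strand, Gm26735, overlaps Sox4, and 54.1% of the 50-base stretches of the annotated Sox4 transcript also occur there. Reads of Sox4 and Gm26735 may not have been told apart either, which bears on the Sox4 level in both forms.

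Sox12 had 0 reads in LL3 and 1297 in LL3WT, where it stood at 6.02 RPKM (5.69 to 6.35). Against a floor of 3 reads, or 0.0118 RPKM, Sox12 was 509-fold lower in LL3. By the exact counting limit it was at least 413.6-fold lower in LL3. Located on chromosome 2 from 152393611 to 152398046, Sox12 ranked 328 from the bottom of the 12609 genes. Sox11 had 8 reads in LL3 and 133 in LL3WT, or 0.0165 RPKM in LL3 and 0.324 RPKM in LL3WT. It was 19.6-fold lower in LL3 (9.66 to 46.3), although both levels were low and the log2(RPKM + 1) difference was -0.38. No 50-base stretch of Sox11 or Sox12 occurs in another annotated transcript. The longest exact run of bases that Sox4 shares is 48 with Sox11 and 33 with Sox12.

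Sox2, a factor of pluripotent and neural progenitor cells, had 0 reads in LL3 and 4 in LL3WT. The interval of the ratio ran up to 1.29 and so included 1, and no difference was detectable at this depth. The gene Sox2ot, which contains Sox2 on the same strand, also had 0 reads in LL3 and 4 in LL3WT.

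**Figure D2:**
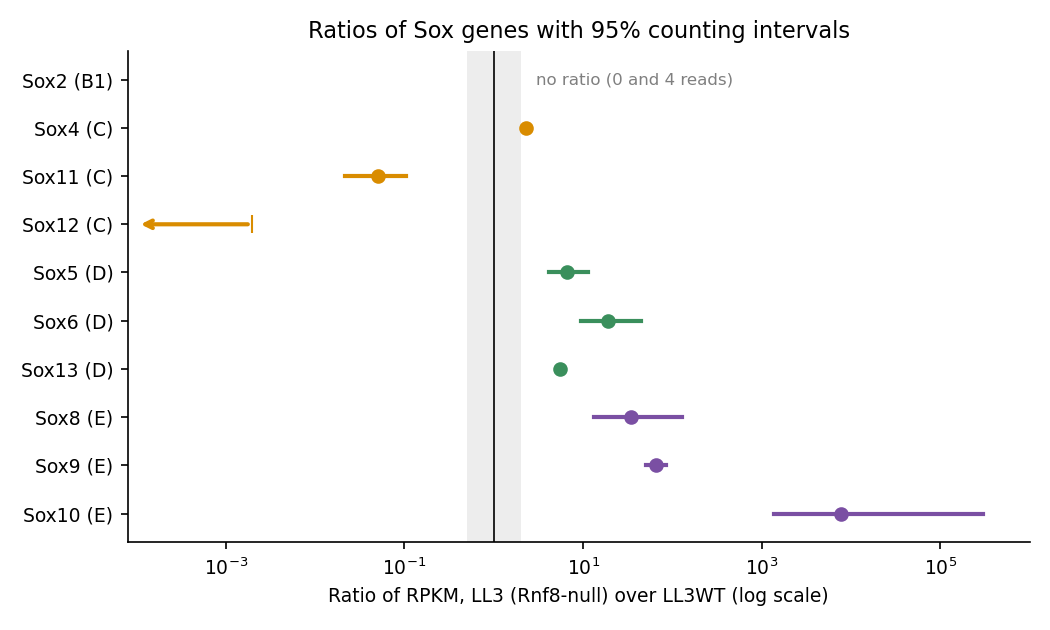
Ratio of RPKM, LL3 (Rnf8-null) over LL3WT (Rnf8-complemented), for each Sox gene on a log axis, with exact 95% counting intervals (bars) coloured by group. The grey band is 2-fold either way, the Sox12 arrow starts at its ratio with 3 reads set for LL3, and Sox2 has no ratio. The 6 group D and E genes and Sox4 lie right of the band, Sox11 and Sox12 left of it.

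By the 2-fold rule on log2(RPKM + 1), 4 of the 10 genes (Sox4, Sox9, Sox10 and Sox13) were higher and 1, Sox12, was lower in LL3. Over all 20176 genes with a read, 10% were higher and 10.7% lower by that rule. Only 5 of the 10 had a mean of at least 1 RPKM, the same 5 that passed the fold, and among the 12609 such genes 14.8% were higher and 15.9% lower. Sox9 and Sox10 passed that level filter through LL3 alone, and Sox12 through LL3WT alone. The choice of members used this contrast, so nothing is read from the difference in shares. Scaling by DESeq2 size factors moved the median over all 12609 genes to 0.03, against -0.17 with library totals, and gave 2183 higher and 1556 lower genes, against 1866 higher and 2010 lower. The size factor came out at 1 for both libraries, so this scaling compared the counts without dividing by library totals. All 10 members kept the direction of their difference under this scaling. The median log2 difference was 0.57 over the 10 members and -0.04 over all genes with a read. By counting intervals, 7 members had a ratio above 1 and 2 a ratio below 1, while 29.3% of all genes with a read were above and 43.2% below.

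The order of levels differed between the forms. In LL3 it ran Sox4, Sox10, Sox9, Sox13, Sox8, Sox6, Sox5, Sox11, with Sox2 and Sox12 at 0. Among neighbours in that order, the counting intervals of Sox6 and Sox5 overlapped, as did those of Sox11 and the genes at 0, and the others did not. In LL3WT the order ran Sox4, Sox12, Sox13, Sox11, Sox9, Sox2, Sox5, Sox8, Sox6, Sox10. There Sox11 and Sox9 overlapped, as did each neighbouring pair from Sox2 down to Sox10.

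Summed over the 20 Sox genes of the table, expression came to 195 RPKM in LL3 and 53.9 RPKM in LL3WT. Group E made up 77.7 RPKM or 39.8% of the LL3 sum and 0.325 RPKM or 0.602% of the LL3WT sum. Group C made up 52.2% of the LL3 sum and 93.7% of the LL3WT sum, nearly all of it Sox4 in LL3, and Sox4 with Sox12 in LL3WT. Group D, mostly Sox13, made up 7.79% in LL3 and 5.03% in LL3WT. By this length-scaled measure Sox4, Sox10 and Sox9 led in LL3, and Sox4 and Sox12 led in LL3WT.

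**Figure D3:**
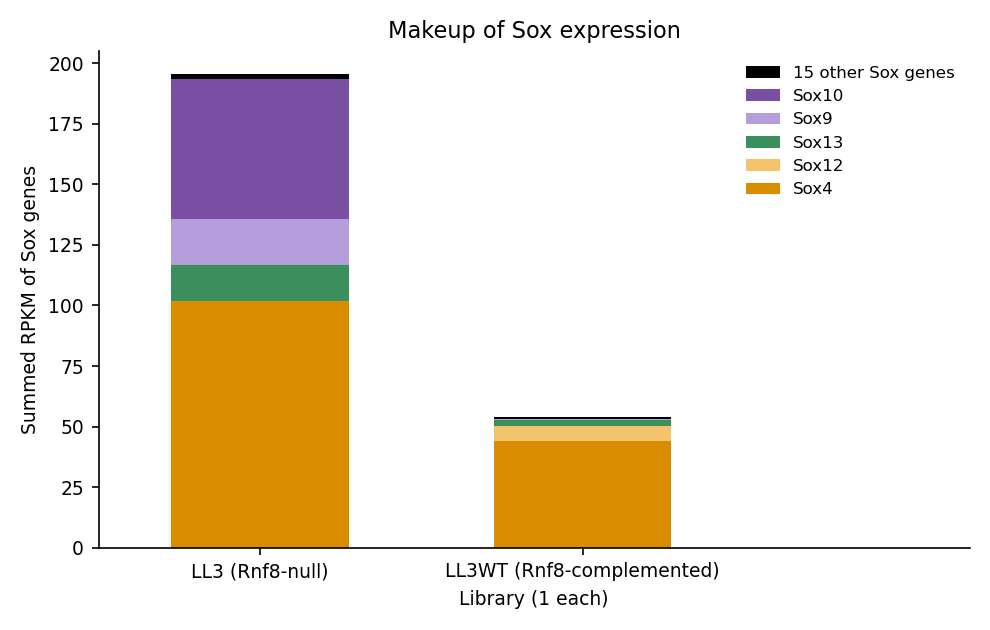
Summed RPKM of the Sox genes in LL3 (Rnf8-null) and LL3WT (Rnf8-complemented), stacked by gene, with 1 library per bar and the axis starting at 0. Sox10 and Sox9 add 57.9 and 18.9 RPKM to the LL3 bar and are too thin to see in the LL3WT bar, where Sox12 adds 6.02 RPKM.

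The 10 other Sox genes of the table were low in both libraries. Sox15 had the most reads of these, with 25 in LL3 and 14 in LL3WT, or 0.384 RPKM in LL3 and 0.253 RPKM in LL3WT. Sox7 had 6 reads in LL3 and 2 in LL3WT, Sox18 had 4 in each, Sox30 had 4 in LL3 and 0 in LL3WT, and Sry had 2 in LL3 and 1 in LL3WT. Sox1, Sox3, Sox14, Sox17 and Sox21 had 0 reads in both. Sox17 and Sox18 are endothelial factors in the mouse, and of 8 endothelial markers 0 reached a mean of 1 RPKM.

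Chromosomal neighbours were compared because they were not used to choose the members. For each Sox gene the nearest gene on either side with a mean of at least 1 RPKM was taken, which gave 20 genes. Of these, 6 were higher in LL3 by the 2-fold rule, 2 were lower and 12 lay within 2-fold, against 14.8% higher and 15.9% lower of all such genes. Among the 8 neighbours of the 4 Sox genes that were higher, 5 were higher. Among the 12 neighbours of the other 6 Sox genes, 1 was higher and 2 were lower. With so few genes, chosen partly through their level in the form where they are high, these are counts and no more.

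Both neighbours of Sox9 are annotated as noncoding. BC006965, 70.9 kb away, had 2867 reads in LL3 and 0 in LL3WT. It was 811-fold higher in LL3 against a floor of 3 reads, and at least 659-fold higher by the exact counting limit. The lincRNA gene 2610035D17Rik, 256 kb away on the other side, stood at 7.91 RPKM in LL3 and 0.138 RPKM in LL3WT, a ratio of 57.3 (33.4 to 108). Both differed in the direction of Sox9.

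Beside Sox10, the noncoding gene Gm10863, 1.58 kb away, had 699 reads in LL3 and 0 in LL3WT. On its other side the RNA polymerase subunit gene Polr2f, 3.14 kb away, stood at 144 RPKM in LL3 and 93.1 RPKM in LL3WT, within 2-fold. Sox10 thus lay between a gene that was detected in LL3 alone and one that was abundant in both forms.

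Beside Sox4, the noncoding gene 2610307P16Rik at 63.5 kb stood at 5.64 RPKM in LL3 and 0.318 RPKM in LL3WT. Its ratio of 17.7 (13.0 to 24.8) was above the 2.30 of Sox4. Cdkal1, on the other side of Sox4, lay within 2-fold at 1.78 RPKM in LL3 and 2.03 RPKM in LL3WT.

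Beside Sox13, the protein-coding gene Plekha6 at 78.9 kb stood at 18.5 RPKM in LL3 and 1.66 RPKM in LL3WT, and Snrpe lay within 2-fold. The sixth higher neighbour was Cmpk2, at 6.20 RPKM in LL3 and 0.155 RPKM in LL3WT, 854 kb from Sox11. The 2 lower neighbours were Bcat1 beside Sox5, with 0 reads in LL3 and 1570 in LL3WT, and Tpsab1 beside Sox8, with 2 reads in LL3 and 142 in LL3WT. Each of these went against the direction of its Sox gene.

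The neighbours of Sox12 were both within 2-fold. Gm14164, 18.3 kb away, stood at 10.6 RPKM in LL3 and 10.1 RPKM in LL3WT. H13, 271 kb away on the other side, stood at 14.8 RPKM in LL3 and 10.8 RPKM in LL3WT. The absence of Sox12 reads in LL3 thus did not extend to the measured genes on either side. Genes in between that were under the level filter were not compared.

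**Figure D4:**
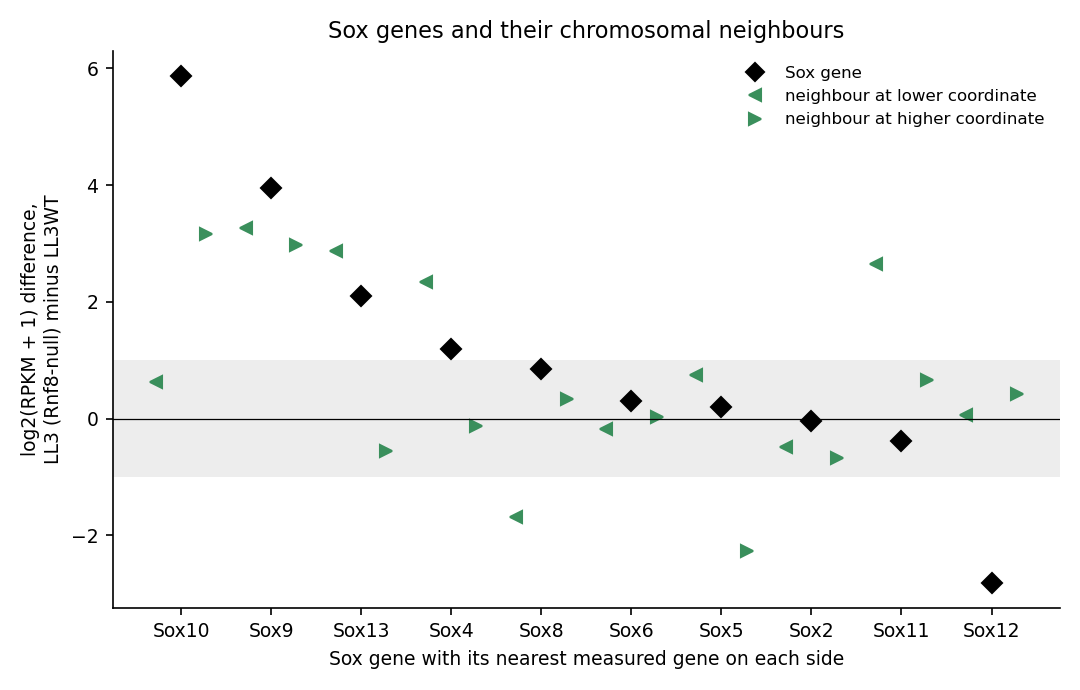
Difference in log2(RPKM + 1), LL3 (Rnf8-null) minus LL3WT (Rnf8-complemented), of each Sox gene (diamonds, ordered by value) and of its nearest measured gene on each side (triangles). The grey band is 2-fold either way. Of the 8 triangles beside Sox10, Sox9, Sox13 and Sox4, 5 lie above the band, and both beside Sox12 lie within it.

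Genes tied to Sox function in other tissues were read from lists. Among genes of cartilage, where Sox9, Sox5 and Sox6 drive the matrix programme, 3 of 13 in the table reached a mean of 1 RPKM. Of these, 2 were higher in LL3 and 0 lower, against 14.8% higher and 15.9% lower of all measured genes. The median log2 difference over all 13 cartilage genes was 0.02, against -0.04 over all genes with a read, and Ucma, under the level filter, had 2 reads in LL3 and 50 in LL3WT. Col9a3 stood at 9.45 RPKM in LL3 and 0.413 RPKM in LL3WT, and Col9a1 had 686 reads in LL3 and 0 in LL3WT. Col11a2 lay within 2-fold at 2.17 RPKM in LL3 and 1.73 RPKM in LL3WT. Both higher genes encode chains of collagen IX, and both passed the level filter through their level in LL3 alone, which favours this outcome. Col9a2, under the level filter, had 139 reads in LL3 and 3 in LL3WT. The defining cartilage genes were near 0, Col2a1 with 40 reads in LL3 and 2 in LL3WT, and Acan with 3 reads in LL3 and 13 in LL3WT.

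Among genes of Schwann cells and melanocytes, lineages that Sox10 regulates in the neural crest, 5 of 20 reached a mean of 1 RPKM. Of these, 3 were higher and 2 lower in LL3, against 14.8% higher and 15.9% lower of all measured genes. Over the 19 listed genes with a read the median log2 difference was 0.0033. Erbb3 and S100b passed the level filter through LL3 alone, and Pmp22 and Mitf through LL3WT alone. Erbb3, the neuregulin receptor subunit, stood at 22.8 RPKM in LL3 and 0.0819 RPKM in LL3WT, a ratio of 279 (172 to 488). S100b, a calcium-binding protein of glia, stood at 5.69 RPKM in LL3 and 0.248 RPKM in LL3WT. The myelin gene Mbp stood at 7.37 RPKM in LL3 and 1.16 RPKM in LL3WT.

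The 2 lower members were Pmp22, a peripheral myelin protein also made outside nerve, at 0.339 RPKM in LL3 and 146 RPKM in LL3WT, and Mitf, the melanocyte regulator, at 0.263 RPKM in LL3 and 6.93 RPKM in LL3WT. Several other genes of pigment cells and early neural crest had few reads in both forms. Dct had 4 reads in LL3 and 4 in LL3WT, Tyr 8 in LL3 and 4 in LL3WT, and Foxd3 0 in LL3 and 4 in LL3WT. Among these genes Pmel had more reads, at 1.26 RPKM in LL3 and 0.541 RPKM in LL3WT, a ratio of 2.33 (1.71 to 3.23). Mlana had 12 reads in LL3 and 6 in LL3WT, or 0.455 RPKM in LL3 and 0.268 RPKM in LL3WT. Its ratio interval of 0.590 to 5.51 included 1. Over the whole list the summed level was 40.2 RPKM in LL3 and 159 RPKM in LL3WT, most of the LL3WT sum being Pmp22.

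Of 5 genes known as targets of group C factors, 4 were measured. In LL3 1 of these was higher, 2 were lower and 1 was within 2-fold, against 14.8% higher and 15.9% lower of all measured genes. The lower gene Tubb3 passed the level filter through LL3WT alone, which favours its call. The median log2 difference over all 5 listed was -0.38. Tead2, a partner of Yap, stood at 62.5 RPKM in LL3 and 27.1 RPKM in LL3WT, a ratio of 2.31 (2.23 to 2.38). The neuronal tubulin gene Tubb3 stood at 0.132 RPKM in LL3 and 2.69 RPKM in LL3WT, and the semaphorin gene Sema3c at 5.86 RPKM in LL3 and 20.4 RPKM in LL3WT. The histone methyltransferase gene Ezh2 lay within 2-fold at 12.0 RPKM in LL3 and 15.9 RPKM in LL3WT.

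Of 12 genes that act with Sox2 in pluripotent cells, 3 were measured and all 3 were higher in LL3. The shares over all measured genes were 14.8% higher and 15.9% lower. The median log2 difference over the 9 listed genes with a read was -0.03. Klf4 stood at 82.1 RPKM in LL3 and 13.4 RPKM in LL3WT, Klf5 at 6.75 RPKM in LL3 and 1.11 RPKM in LL3WT, and Lefty1 had 219 reads in LL3 and 0 in LL3WT. Klf4 and Klf5 are also epithelial factors, and Lefty1 passed the level filter through LL3 alone. The core genes were near 0, Pou5f1 with 0 reads in LL3 and 2 in LL3WT, and Nanog with 5 reads in LL3 and 9 in LL3WT.

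Of 7 measured genes for other factors with a single HMG box, 0 were higher in LL3, 2 were lower and 5 were within 2-fold. The shares over all measured genes were 14.8% higher and 15.9% lower. The median log2 difference over all 11 listed was -0.06. The lower genes were Tcf7l1, a nuclear effector of Wnt signalling, at 1.28 RPKM in LL3 and 6.55 RPKM in LL3WT, and Bbx at 1.99 RPKM in LL3 and 5.86 RPKM in LL3WT. Tcf7, another Wnt effector, stood at 3.54 RPKM in LL3 and 5.43 RPKM in LL3WT, and the repressor gene Cic at 14.4 RPKM in LL3 and 27.0 RPKM in LL3WT, both within 2-fold on the log2(RPKM + 1) scale.

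Marker lists of cell types were also compared between the 2 forms. All 12 epithelial markers were measured and higher in LL3, against 14.8% higher and 15.9% lower of all measured genes. All 12 passed the level filter through LL3 alone, which favours this outcome, though the filter left none of the list out. Their summed level was 6324 RPKM in LL3 and 1.50 RPKM in LL3WT, and the median log2 difference was 8.14. Among the luminal keratin genes, Krt8 stood at 1126 RPKM in LL3 and 0.296 RPKM in LL3WT, and Krt18 at 1762 RPKM in LL3 and 0.294 RPKM in LL3WT. Krt7 stood at 1649 RPKM in LL3 and 0.182 RPKM in LL3WT, and Krt19 at 417 RPKM in LL3 and 0.0449 RPKM in LL3WT. The adhesion marker Epcam had 27083 reads in LL3 and 1 read in LL3WT. The epithelial markers were thus abundant in LL3 and near 0 in LL3WT, although both forms carry the same mammary tumour label.

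Of 9 measured mammary progenitor and basal genes, 6 were higher and 1 lower in LL3. The shares over all measured genes were 14.8% higher and 15.9% lower. Elf5, Aldh1a3, Krt5, Krt14 and Krt17 passed the level filter through LL3 alone, and Snai2 through LL3WT alone. Over the 15 listed genes with a read the median log2 difference was 0.21. Summed levels over the list were 719 RPKM in LL3 and 33.7 RPKM in LL3WT. Among these Elf5, a luminal progenitor factor, had 5462 reads in LL3 and 1 read in LL3WT. The basal keratin gene Krt14 stood at 229 RPKM in LL3 and 0.335 RPKM in LL3WT, and Krt17 at 256 RPKM in LL3 and 0.0136 RPKM in LL3WT. Aldh1a3, a retinoic acid synthesis enzyme, stood at 32.3 RPKM in LL3 and 0.259 RPKM in LL3WT. The lower gene was Snai2, a factor of epithelial-mesenchymal transition, with 4 reads in LL3 and 936 in LL3WT. Trp63, a regulator of basal cells, was under the level filter, with 3 reads in LL3 and 48 in LL3WT. Id4, Prom1 and Lgr5 had 0 reads in LL3, and Tspan8 had 0 reads in both forms.

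Of 6 measured fibroblast markers, 5 were lower and 1, Postn, was higher in LL3. The shares over all measured genes were 15.9% lower and 14.8% higher. Col3a1, Twist1, Pdgfrb and Dcn passed the level filter through LL3WT alone, and Postn through LL3 alone. Over all 13 markers the median log2 difference was -0.69. Summed levels over the list were 5.09 RPKM in LL3 and 217 RPKM in LL3WT. The collagen gene Col3a1 stood at 0.0342 RPKM in LL3 and 140 RPKM in LL3WT, and the mesenchymal factor gene Twist1 at 0.0214 RPKM in LL3 and 19.5 RPKM in LL3WT. Pdgfrb, a growth factor receptor, stood at 0.0389 RPKM in LL3 and 46.6 RPKM in LL3WT, and the proteoglycan gene Dcn at 0.285 RPKM in LL3 and 3.19 RPKM in LL3WT. Pdgfra, another marker of the list, had 54 reads in LL3 and 27 in LL3WT. The leukocyte list had 1 measured gene, Cd68, within 2-fold at 16.7 RPKM in LL3 and 9.33 RPKM in LL3WT, and Ptprc, its defining gene, had 0 reads in LL3 and 1 in LL3WT. The part of these marker differences in the Sox values was not tested.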

How the data were processed

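RNA sequencing values of 2 mouse tumour cell libraries were used, 1 per group. Raw counts per gene and RPKM values for the same genes were deposited by the authors. Dividing counts by RPKM and the library total gave a whole-number gene length, within 1.35e-08 bases, for each of 20176 genes with a read, so RPKM was the count scaled by column total and length. Per the submitters' processing notes, which give no role or order, the tools were STAR 2.4.0f1, SAMtools 0.1.18, bedtools and DESeq2, and the build was mm10 (GRCm38). The sources used here do not state the counting tool, the annotation or the strand setting.

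The members and gene lists were chosen with earlier results of these data known. Named genes are all Sox genes, Rnf8, and of each list the up to 4 measured genes with the largest absolute difference. Neighbours, overlapping genes, other list members such as defining markers and genes that complete a count were added after their values were seen. A gene was measured at a mean of at least 1 RPKM, and higher or lower at a log2(RPKM + 1) difference, LL3 minus LL3WT, of at least 1 or at most -1. Ratios carry exact conditional binomial (Clopper-Pearson) 95% intervals and levels exact Poisson ones (scipy 1.17.1). Only the ratio intervals and the 2-fold rule were tested on simulated data. The simulated counts were Poisson draws, so error beyond counting was not covered. Reads had no molecular identifiers stated, so both kinds of interval can be too narrow. Where a fold against 0 reads is given, it is the exact 95% limit beside the fold against a floor of 3 reads. Alternatives were pseudocounts of 0.1 and 5 RPKM, TMM scaling (edgeR 4.0.16), size factors (DESeq2 1.42.0) and filters at a mean of 1 or 5 RPKM. Gene positions and neighbours came from RefSeq on GRCm38.p6 (22219 symbols matched), and overlaps and 50-base stretches from GENCODE vM21.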

Additional observations from a re-analysis of the deposited data

How the results depend on the processing

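No paired analysis was possible because each group had 1 library. The counts of 4 higher and 1 lower members were the same with TMM scaling, DESeq2 size factors and a pseudocount of 5 RPKM. The DESeq2 size factor was 1 for both libraries, so that setting did not divide by library totals. With a pseudocount of 0.1 RPKM, 7 members were higher and 2 lower in LL3, and the background was then 14.8% higher and 18.2% lower; at 5 RPKM it was 6.04% higher and 5.03% lower. Among the 4 members with a mean of at least 5 RPKM, 4 were higher and 0 lower, because Sox12 averages 3.01 RPKM. Sox9 and Sox10 passed this filter through LL3 alone, which favours this count. The share over all genes at this filter is not given, so nothing is read from the count. The median difference of 0.57 was 1.41 with a pseudocount of 0.1 RPKM and 0.14 with 5 RPKM. It was 2.10 over the 5 members with a mean of at least 1 RPKM, and 3.03 over the 4 with at least 5 RPKM. Both filtered medians include Sox9 and Sox10, which passed through LL3 alone. Higher genes numbered 2160 and lower ones 1569 with TMM scaling, where the median of all measured genes was 0.02. The Sox4 difference was 1.19 with library totals, 1.41 with TMM and 1.42 with DESeq2 size factors, and the sign of all 10 members was the same under these scalings. Of the single-gene ratios and gene list counts, leaving out lists with no gene over the filter, 108 stayed close to their value under an alternative and 20 moved. For a ratio, close meant inside the gene's own counting interval, so Sox10 with its wide interval counted as close and Sox4 as moved. List counts that stayed at 0 also counted as close. Sox2, Sox5, Sox6, Sox8, Sox10, Sox11 and Sox12 had fewer than 20 reads in at least 1 library, with 1 read of Sox10 in LL3WT and 0 of Sox12 in LL3.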
